A study of Mus musculus with 12 samples.

Results

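The 35 genes described here encode glycoproteins, proteoglycans and matricellular proteins of the extracellular matrix, together with the lysyl oxidases that cross-link it. They were chosen by name: Fn1, Nid1, Nid2, Matn2, Tgfbi, Islr and Srpx among the glycoproteins; Dcn, Lum, Bgn, Fmod and Ogn among the small leucine-rich proteoglycans; Eln, Fbn1, Fbn2, Fbln1, Fbln2, Fbln5 and Efemp1 among the elastic fibre proteins; Lox, Loxl1, Loxl2, Loxl3, Loxl4 and Pcolce among the enzymes and helpers of fibre processing; and Postn, Sparc, Spp1, Tnc, Thbs1, Thbs2, Thbs3, Ctgf, Cyr61 and Mgp among the matricellular proteins. Their probes were found by the gene name on the array, an older alias or the accession. The arrays carried 52 probes for them, and all 35 passed the filter of being well above the scanner's background on at least 1 array, out of 20968 genes that passed it in all. On all 12 arrays 33 of the 35 were well above background; Islr was so on 6 arrays and Lum on 8.

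The cells were neural progenitor cells from mice of strain 129/Ola, and their RNA was measured on one-colour Agilent arrays, 1 for each of 12 groups. In 10 groups a retrovirus carried the open reading frame of 1 transcription factor, Crebzf, Esx1, Etv6, Gatad2b, Hmga2, Nfxl1, Pax6, Pdx1, Sox11 or Zfp451, in the pMXs-IRESNeo vector, in which the same transcript also gives resistance to the drug G418. The control groups were EGFP, a fluorescent protein, and a group labelled mock, for which neither exposure to virus and drug nor the time of harvest is given in these sources. In the infected groups about 95% of cells were to express the transgene, G418 was added at 24 h and cells were harvested at 72 h. From every group 0.25 µg of RNA was labelled. The series title sorts the factors into interfering and non-interfering ones without saying which is which, so each factor array was set against the controls on its own. The file headers place the Pax6, Hmga2, EGFP and mock arrays on slide 1, Gatad2b, Etv6, Esx1 and Nfxl1 on slide 2, and Crebzf, Pdx1, Sox11 and Zfp451 on slide 3. Slides 2 and 3 held no control. For an array of those slides, slide and factor cannot be told apart in the difference from the controls.

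The extracellular matrix is the protein network that cells secrete around themselves. Collagen fibrils and elastic fibres carry load, small leucine-rich proteoglycans such as decorin sit on the fibrils and bind growth factors, and lysyl oxidases tie collagen and elastin molecules together by oxidising their lysines. Matricellular proteins are secreted into the same space but act on cells through their receptors more than they build structure. In the brain this fibrous kind of matrix belongs mostly to the meninges and blood vessels, whereas the matrix between neurons is built on hyaluronan, lecticans and tenascins.

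To show the letters in front of genes with very different behaviour, the 250 bases before the annotated start are printed for 3 genes that stood far above the controls on 6 arrays, Postn, Srpx and Ogn, and for Cyr61, which was called on no array. The sequences are RefSeq's, on GRCm38.p6, 5′ to 3′ on the gene's strand. They lie at chr3:54359017-54359266 on the plus strand for Postn, chrX:10117641-10117890 on the minus strand for Srpx, chr13:49607765-49608014 on the plus strand for Ogn and chr3:145649986-145650235 on the minus strand for Cyr61, now named Ccn1. Each window ends where the annotated gene begins. Capitals mark matches to the TATA box letters TATAAA and to the TEAD letters GGAATG, read on both strands, so that CATTCC is the latter on the other strand.
Postn: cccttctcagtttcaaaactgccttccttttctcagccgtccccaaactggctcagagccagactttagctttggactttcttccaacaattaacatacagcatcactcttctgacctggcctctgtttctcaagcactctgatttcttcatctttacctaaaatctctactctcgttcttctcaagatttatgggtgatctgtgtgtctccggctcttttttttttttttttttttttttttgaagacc
Srpx: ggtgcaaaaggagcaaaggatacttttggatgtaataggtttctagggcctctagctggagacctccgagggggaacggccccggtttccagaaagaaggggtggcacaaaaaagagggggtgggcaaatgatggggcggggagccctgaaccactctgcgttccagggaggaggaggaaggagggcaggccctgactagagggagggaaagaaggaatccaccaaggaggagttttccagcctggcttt
Ogn: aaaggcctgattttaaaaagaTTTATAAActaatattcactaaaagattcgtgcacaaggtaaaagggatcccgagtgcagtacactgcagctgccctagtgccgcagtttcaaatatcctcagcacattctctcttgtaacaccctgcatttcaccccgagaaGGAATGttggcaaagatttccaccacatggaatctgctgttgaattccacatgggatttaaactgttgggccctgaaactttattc
Cyr61: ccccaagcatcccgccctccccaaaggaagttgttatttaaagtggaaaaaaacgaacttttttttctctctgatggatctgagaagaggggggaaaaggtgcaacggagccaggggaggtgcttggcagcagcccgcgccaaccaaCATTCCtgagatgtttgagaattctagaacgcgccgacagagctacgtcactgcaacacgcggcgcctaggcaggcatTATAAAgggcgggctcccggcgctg

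None of the searched letters was in the Postn or Srpx window. The Ogn window held TATAAA on both strands, overlapping, far from its downstream end, and GGAATG once. The Cyr61 window held TATAAA close to its downstream end and GGAATG on the other strand. A second annotated Postn start, inside the gene, also had TATAAA in its window. The promoter table held 26 such windows for 21 of the 35 genes. Of these, 26.9% held TATAAA against 12.4% of all 32851 windows in the table, 11.5% held GGAATG against 12.6%, and 19.2% held the CCAAT box letters CCAAT against 33.8%. The SMAD letters CAGACA were in 30.8% against 17.1%, and the AP-1 letters TGANTCA in 3.85% against 6.75%. Windows of the same gene can overlap: those of Fbln1 share a CAGACA match and those of Tnc a TATAAA match, each counted in both windows. These shares describe letters in a window and were not tested.

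Levels are given as log2 of the scanner's processed signal relative to the 75th percentile of its array, so that 0 is that percentile and each unit is a factor of 2. A level belongs to its probe and is compared between arrays, never between genes. To be called higher on a factor array a gene had to exceed both EGFP and mock by 2-fold or more, and to be called lower it had to lie below both by as much, with the brighter side well above background. With 1 array a group there is no replicate error, no test and no p-value, and each fold compares those arrays. The nearest thing to a spread is the distance between the controls: over the 35 genes EGFP and mock differed by a median of 0.11 log2, at most by 0.57 (Dcn), and 0 of the 35 lay 2-fold apart, while 1.36% of all genes did. Spots printed repeatedly on an array had a median SD between 0.043 and 0.079 log2, which measures the printing and scanning alone. RNA came from whole cultures, so more cells of a kind and more RNA per cell cannot be told apart.

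About as many matrix genes were called as not on 6 of the 10 factor arrays, nearly all of them higher than the controls, and at most 1 was called on each of the other 4. The 35 genes were named with earlier results of these data known, which can raise their share. Their share beside that of all genes is thus a description and was not tested. On the Pax6 array 18 of the 35 genes were called higher, which is 51.4% of them, while 10.7% of all genes were. The Esx1 array had 19 called higher, 54.3%, beside a background of 10.3%. Crebzf had 17, 48.6%, beside 9.82% of all genes. Pdx1 had 19 beside a background of 9.85%, Sox11 had 19 beside 9.74%, and Zfp451 had 19 beside 9.59%. The median difference from the mean of the controls over the 35 genes was 1.16 log2 on Pax6, 1.26 on Esx1, 1.05 on Crebzf, 1.23 on Pdx1, 1.15 on Sox11 and 1.14 on Zfp451. Over all genes it was -0.08, -0.20, -0.08, -0.20, -0.20 and -0.09 on the same arrays. Quantile normalization, which brought that median to 0.0, left 18, 19, 19, 19, 19 and 18 of the 35 called higher.

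Few calls fell on the remaining factor arrays. Etv6 had 1 gene called higher, Dcn, beside a background of 1.04%, and 0 lower beside 0.835%. Hmga2 had 0 higher, where the background was 0.434%, and 1 lower, Postn, where it was 0.572%. Gatad2b had 0 calls either way beside backgrounds of 0.644% higher and 1.0% lower, and Nfxl1 had 0 beside 0.3% and 1.17%. Their median differences over the 35 genes were 0.14, -0.11, 0.09 and -0.03 log2 on Etv6, Hmga2, Gatad2b and Nfxl1. Lower calls were rare throughout: Eln on Esx1, beside a background of 7.42%, was the other one, and the Pax6, Crebzf, Pdx1, Sox11 and Zfp451 arrays had 0 where 6.39%, 6.28%, 6.63%, 6.93% and 6.3% of all genes were called lower.

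**Figure D1:**
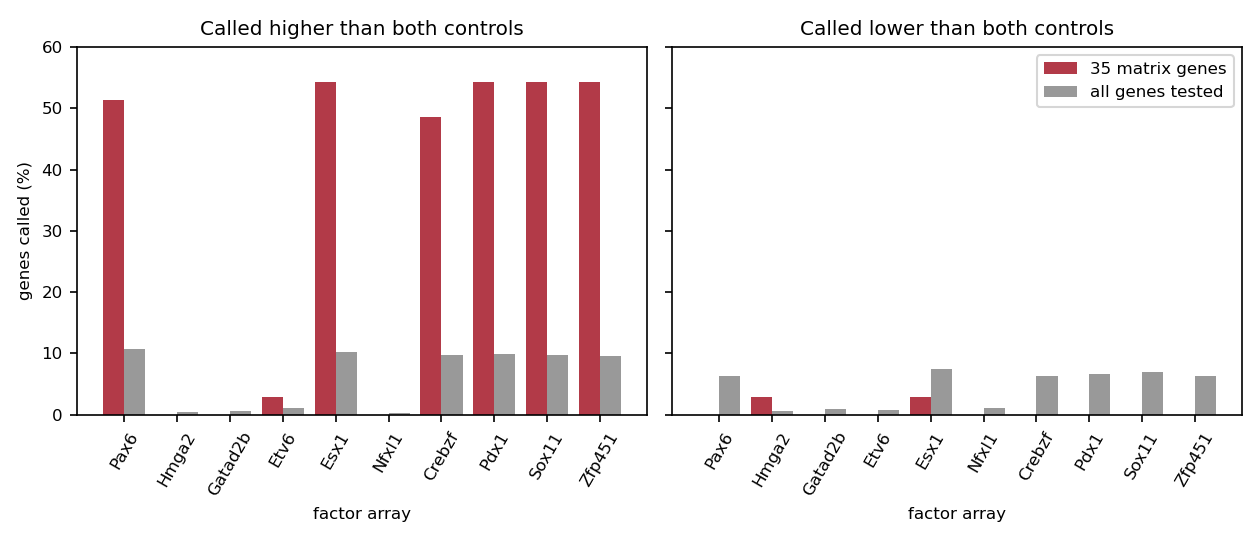
Percent of genes called at least 2-fold higher (left) or lower (right) than both controls on each of the 10 factor arrays, for the 35 matrix genes (red) and for all 20968 genes tested (grey). Red bars for higher calls reach 48.6% to 54.3% on Pax6, Esx1, Crebzf, Pdx1, Sox11 and Zfp451, and 2.86% or less on the other 4 arrays.

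Calls fell on the same genes array after array. Across the 10 factor arrays 19 of the 35 genes were called higher on at least 4, 17 on at least 5 and 16 on at least 6, while 9.16% of all genes were called higher on at least 4 and 6.78% on at least 6. The 16 were Matn2, Tgfbi, Islr, Srpx, Dcn, Bgn, Ogn, Fbn2, Fbln2, Fbln5, Efemp1, Lox, Loxl2, Postn, Tnc and Mgp, each called on Pax6, Esx1, Crebzf, Pdx1, Sox11 and Zfp451. Fmod was called on those without Zfp451, Fn1 and Nid2 on Esx1, Pdx1, Sox11 and Zfp451, and Loxl3 on Pax6 and Zfp451. The other 14 genes were called on no array in either direction: Nid1, Lum, Fbn1, Fbln1, Loxl1, Loxl4, Pcolce, Sparc, Spp1, Thbs1, Thbs2, Thbs3, Ctgf and Cyr61. In the levels below, the 6 arrays with many calls come first, always as Pax6, Esx1, Crebzf, Pdx1, Sox11 and Zfp451, followed by EGFP, mock, Hmga2, Gatad2b, Etv6 and Nfxl1. This order is for reading only; these runs of arrays are not groups of the study and nothing was averaged over them.

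**Figure D2:**
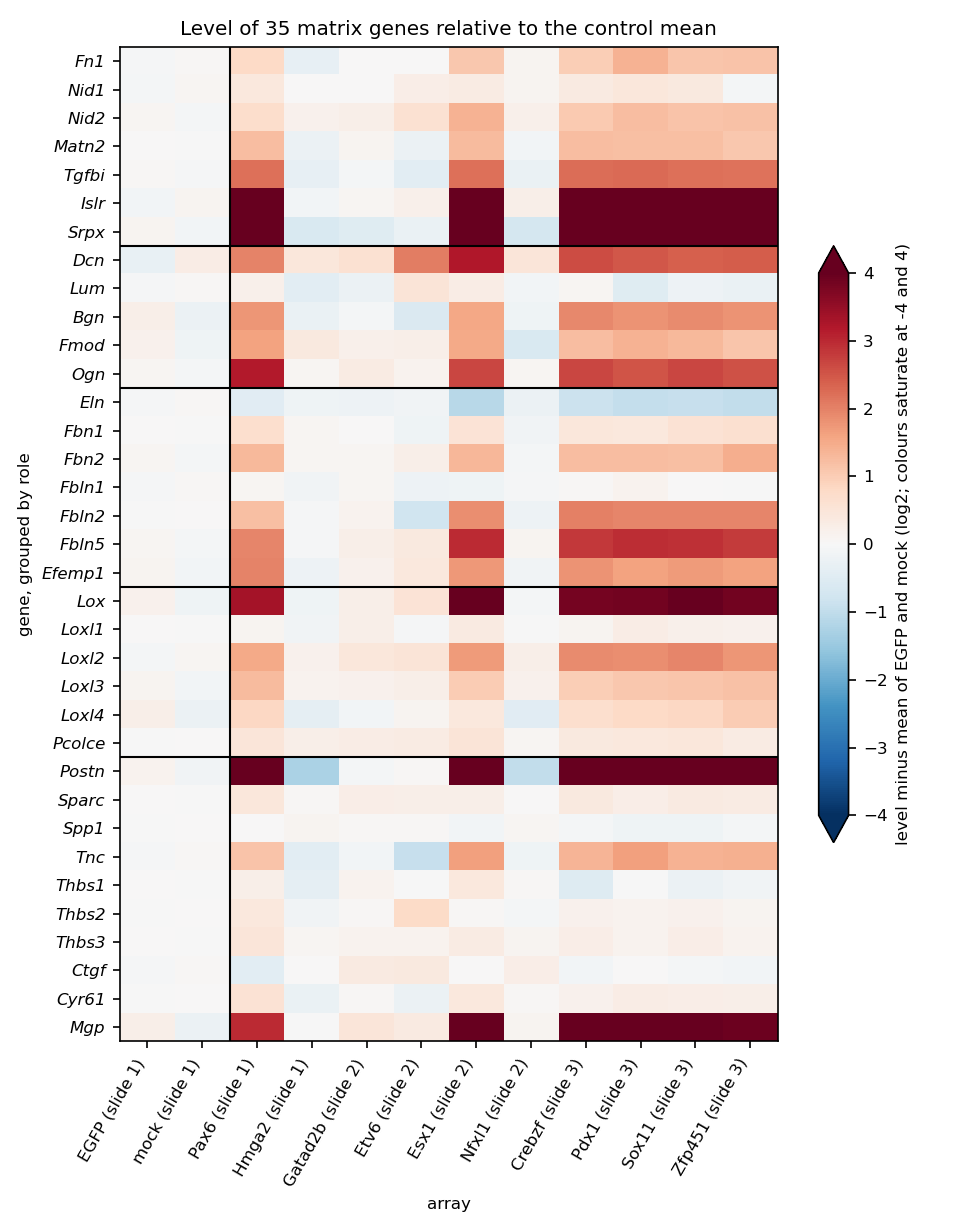
Level of each of the 35 genes (rows, grouped by role and separated by lines) on each of the 12 arrays (columns, controls left of the line) minus the mean of the EGFP and mock levels, in log2, with colours saturated at -4 and 4. In columns Pax6, Esx1, Crebzf, Pdx1, Sox11 and Zfp451, 16 genes were called higher in common. Colours show the difference and not the call, so further genes, Fmod among them, are red there too. Postn, at 6.3 to 7.17, lies beyond the end of the colour scale in these columns.

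Among the glycoproteins, Islr, Srpx and Tgfbi carried large differences, and Matn2, Fn1 and Nid2 smaller ones. Islr encodes a secreted leucine-rich repeat protein known as a marker of mesenchymal stromal cells. Its level was -1.36, -1.08, -0.87, -0.97, -0.89 and -1.05; on the arrays where it was not well above background it was held at the detection floor, between -6.78 and -6.45. It was well above background on those first 6 arrays and on no other, so its folds over the controls are bounds, at least 39.7-fold on Pax6 and at least 55.9-fold on Crebzf. Its other probe was well above background on the same number of arrays and was called on all 6, with differences of at least 1.28 to 1.67 log2. Srpx, a protein with sushi repeats, stood at -0.92, -0.43, -0.69, -0.5, -0.56 and -0.67, against -5.19, -5.4, -5.9, -5.79, -5.55 and -5.99. These sets of values are separated by 4.28 log2, and the called folds ran from 20.9 to 29.3. Tgfbi, an integrin-binding protein named for its induction by TGF-beta, stood at 6.42, 6.43, 6.47, 6.49, 6.43 and 6.4, against 4.27, 4.18, 3.91, 4.14, 3.81 and 3.97. Its 6 called arrays lay within 0.09 log2 of each other, 4.51-fold to 4.81-fold above the control mean.

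Matn2, an adaptor that links matrix filaments, stood at 1.69, 1.71, 1.68, 1.64, 1.64 and 1.54, against 0.48, 0.42, 0.23, 0.55, 0.22 and 0.33, which put the called arrays 2.12-fold to 2.39-fold above the controls. Fn1 encodes fibronectin, the glycoprotein on which cells assemble other matrix fibrils. Its level was 4.14, 4.4, 4.31, 4.71, 4.43 and 4.47, against 3.28, 3.38, 3.01, 3.34, 3.33 and 3.44. The Pax6 and Crebzf values, 1.76-fold and 1.97-fold above the control mean, fell short of the call, and the neighbouring levels of called and uncalled arrays were only 0.09 log2 apart. The array held 3 Fn1 probes, called on 4, 2 and 6 factor arrays. Nid2, which with Nid1 bridges laminin and collagen networks in basement membranes, stood at 0.88, 1.58, 1.23, 1.41, 1.33 and 1.35, against 0.26, 0.1, 0.35, 0.41, 0.79 and 0.39; its 4 calls were 2.22-fold to 2.64-fold. Nid1 differed from the controls by -0.08 to 0.44 log2 on the 10 factor arrays and was called on none.

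Of the 5 small leucine-rich proteoglycans, Dcn, Bgn, Ogn and Fmod were called higher on 5 or more arrays and Lum on none. Ogn encodes osteoglycin, also called mimecan. It stood at 0.27, -0.23, -0.25, -0.41, -0.23 and -0.37, against -2.85, -2.98, -2.85, -2.58, -2.79 and -2.84, so that the Pax6 array was the highest and the folds ran from 5.7 to 9.13. Dcn encodes decorin, which binds collagen fibrils and TGF-beta. Its level was -2.13, -0.91, -1.53, -1.65, -1.72 and -1.71, against -4.41, -3.84, -3.68, -3.51, -2.07 and -3.65. Dcn was the gene called on the most arrays, 7, since Etv6, at 4.15-fold, joined the others. The Etv6 level lay just above that of Pax6, and the largest fold was 9.31 on Esx1. EGFP and mock differed by 0.57 for this gene. Its other probe was well above background on no array, and the mean of both probes ended the calls on Pax6, Etv6, Pdx1 and Sox11, at 0.96 to 1.13 log2.

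Bgn, biglycan, stood at -1.34, -1.55, -1.17, -1.32, -1.2 and -1.31, against -2.87, -3.34, -3.36, -3.18, -3.68 and -3.27, 2.94-fold to 3.81-fold higher on the called arrays. Its other probe was well above background on only 1 array, and with the mean of both only the Pax6 call was left. Fmod encodes fibromodulin, which governs collagen fibril thickness. Its level was -3.73, -3.82, -4.11, -3.96, -4.03 and -4.23, against -5.16, -5.52, -4.94, -5.13, -5.1 and -5.94; the Zfp451 array, 2.16-fold above the control mean, was less than 2-fold above EGFP and so was not called. With normexp background correction none of its 5 calls was left, at 0.47 to 0.66 log2. Lum, lumican, lay near the detection floor everywhere, between -6.84 and -5.83.

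The elastic fibre proteins split by gene. Fbn2, Fbln2, Fbln5 and Efemp1 were called higher on 6 arrays, Fbn1 and Fbln1 on none, and elastin itself was called lower on 1 array. Fbln5 encodes fibulin-5, which brings elastin and its cross-linking enzymes onto microfibrils. It stood at 3.91, 4.96, 4.8, 4.92, 4.89 and 4.78, against 2.06, 1.88, 1.91, 2.21, 2.37 and 2.09, and the folds ran from 3.85 on Pax6 to 7.97 on Esx1. Fbln2, fibulin-2, stood at 3.14, 3.77, 3.95, 3.87, 3.89 and 3.89, against 1.9, 1.95, 1.87, 2.08, 1.12 and 1.73. For both fibulins the Pax6 array lay under the other 5 called arrays, and for Fbln2 the Etv6 array was the lowest of the 12, at 0.80 log2 below the control mean. Efemp1, or fibulin-3, showed the opposite order, with Pax6 the highest: 3.72, 3.46, 3.52, 3.33, 3.43 and 3.34, against 1.83, 1.64, 1.54, 1.9, 2.17 and 1.6. The folds ran from 3.03 to 3.97 for Efemp1 and from 2.33 to 4.07 for Fbln2.

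Fbn2 encodes fibrillin-2, the fibrillin of developing tissues. Its level was 3.15, 3.18, 3.07, 3.08, 3.06 and 3.31, against 1.93, 1.77, 1.94, 1.94, 2.07 and 1.78, with folds of 2.32 to 2.75. Fbn1, the fibrillin of the adult microfibril, differed from the controls by -0.15 to 0.66 log2 and was called nowhere. Fbln1, fibulin-1, stayed within -0.19 and 0.14 of them. Eln was dim, between -5.4 and -4.24, and was lowest on Esx1, where the call was 2.15-fold lower (-0.49 log2 and no call with normexp, and -0.96 to -0.87 log2 from the other arrays of its slide), and next on Zfp451, Pdx1, Sox11 and Crebzf, at -0.98, -0.96, -0.92 and -0.86 log2, which did not reach the call. Pax6 followed at -0.45, and the other 4 factor arrays lay between -0.24 and -0.14.

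Among the cross-linking enzymes, Lox and Loxl2 were called on all 6 arrays. Lox encodes lysyl oxidase, the enzyme that starts collagen and elastin cross-links. It stood at -0.36, 0.31, 0.13, 0.16, 0.27 and 0.15, against -3.54, -3.86, -3.88, -3.47, -3.14 and -3.77. The lowest called array, Pax6, was 10.2-fold above the controls and the highest, Esx1, 16.2-fold, with an empty stretch of 2.79 log2 beneath them. Loxl2, which oxidises collagen IV in basement membranes, stood at 3.25, 3.44, 3.61, 3.58, 3.69 and 3.51, against 1.65, 1.82, 1.92, 2.18, 2.25 and 1.96, with folds of 2.86 to 3.88. Its other probe was called on 4 of those 6 arrays.

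Loxl3 sat at the edge of the rule, with differences of 1.24 on Pax6, 1.16 on Zfp451, 1.10 on Sox11, 1.07 on Pdx1, 1.01 on Esx1 and 0.99 on Crebzf, of which Pax6 and Zfp451 alone were at least 2-fold above each control. Neither call was left with normexp, at 0.89 and 0.77, or with quantile normalization, at 1.05 and 1.02. Loxl1, needed for elastic fibre upkeep in mouse, differed by -0.14 to 0.36 log2. Loxl4 was not called with the probe used, at -0.45 to 1.02, but its other probe was called on 3 arrays. Pcolce, the protein that speeds removal of the procollagen C-propeptide, was among the bright probes and differed by 0.09 to 0.52.

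The matricellular genes ranged from Postn, whose differences passed 6 log2, to several called on no array. Postn encodes periostin, which binds integrins and brings together collagen and the enzymes that process it. Its level was 2.42, 2.59, 1.86, 2.12, 1.86 and 1.72, against -4.44, -4.73, -5.85, -4.66, -4.54 and -5.57. Every one of the first 6 values was above the array's 75th percentile and every one of the others far below it, with 6.16 log2 between the nearest. The folds over the control mean were 78.8 on Zfp451, 87.1 on Crebzf, 87.2 on Sox11, 104.0 on Pdx1, 128.0 on Pax6 and 144.0 on Esx1. Hmga2 went the other way, 2.4-fold below the controls, a call that normexp (-0.37 log2) and the mean of both Postn probes (-0.69) ended. Nfxl1, at -0.99 log2, did not reach the call. The Postn probe matches the gene's deposited transcript and maps to chr3:54519770-54519829 on the mm7 build of the array design. A probe to another transcript of the gene, at chr3:54510239-54510298, was well above background on 2 arrays and called on none, with differences of 0.66 on Pax6 and 0.30 on Esx1.

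Mgp encodes matrix Gla protein, an inhibitor of calcification. Its level was 2.03, 3.02, 3.1, 3.06, 3.06 and 2.96, against -0.72, -1.19, -0.96, -0.46, -0.59 and -0.84. The Pax6 array was 7.91-fold above the controls and lay about 1 log2 under the other 5, which reached 15.0-fold to 16.6-fold. Tnc encodes tenascin-C, a large glycoprotein of developing and injured brain and of neural stem cell niches. It stood at 1.81, 2.31, 2.0, 2.28, 2.05 and 2.08, against 0.62, 0.69, 0.23, 0.55, -0.27 and 0.48. All 3 of its probes were called on the same 6 arrays, and on Etv6 all 3 lay below the controls, by 0.93, 0.86 and 0.90 log2, without reaching the call.

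**Figure D3:**
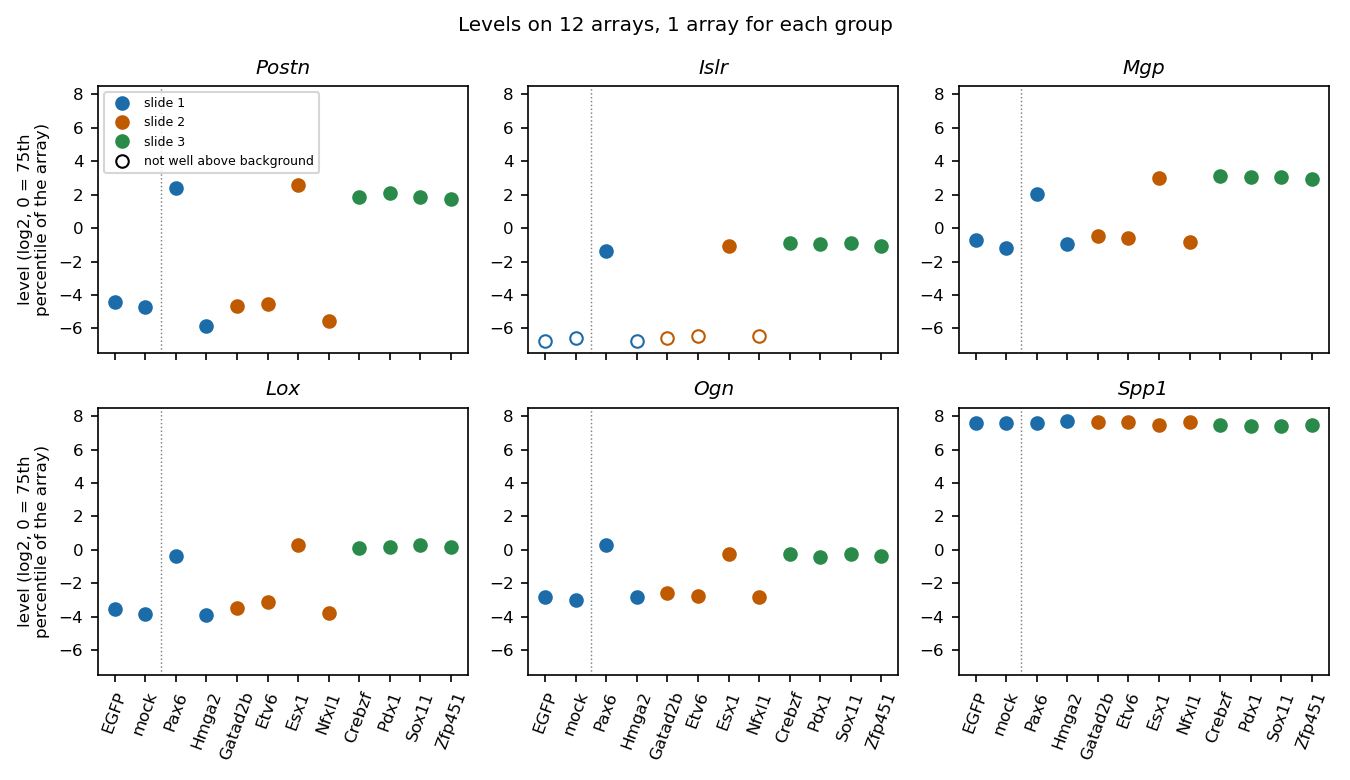
Levels of Postn, Islr, Mgp, Lox, Ogn and Spp1 (log2, 0 is the 75th percentile of the array) on each of the 12 arrays, 1 point an array, coloured by slide, with open points not well above background and controls left of the dotted line. For the first 5 genes the points of Pax6, Esx1, Crebzf, Pdx1, Sox11 and Zfp451 stand apart above the others, while Spp1 stays between 7.39 and 7.68.

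The other 7 matricellular genes were called on no array. Spp1, osteopontin, was a bright probe that differed from the controls by -0.19 to 0.11 log2 on the 10 factor arrays. Sparc, a collagen-binding protein, differed by 0.01 to 0.45. Ctgf and Cyr61, the CCN proteins used as readouts of YAP activity, differed by -0.43 to 0.39 and by -0.26 to 0.57. The thrombospondins, secreted calcium-binding glycoproteins, differed by -0.52 to 0.42 for Thbs1, -0.13 to 0.76 for Thbs2 and 0.08 to 0.47 for Thbs3. The highest Thbs2 value belonged to Etv6.

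Comparison with the other arrays of the same slide holds the slide fixed. On slide 1 the Pax6 array was at least 2-fold above each of Hmga2, EGFP and mock for 18 of the 35 genes, where 10.2% of all genes were. It was below each of them for 0, where 5.65% were. The 18 are the same as against the controls. As EGFP and mock are those controls, the rule can only pick from genes already called, and Hmga2 alone is added. On slide 2 the Esx1 array was at least 2-fold above each of Gatad2b, Etv6 and Nfxl1 for 17, beside 10.1% of all genes, and below each of them for 0, beside 5.58%. Those 17 were the Pax6 list without Loxl3. Postn exceeded its slide neighbours by 6.86 to 8.27 log2 on Pax6 and by 7.13 to 8.16 on Esx1. Mgp did so by 2.75 to 3.22 and by 3.47 to 3.86, and Lox by 3.19 to 3.52 and by 3.46 to 4.08. Hmga2 was below every other array of slide 1 for 1 gene, Postn, where 0.0811% of all genes were. No other array of slides 1 and 2 stood apart from its slide for any of the 35 genes. Among all genes, 0.615% stood above the slide on Gatad2b and 0.0954% below it, 0.649% and 0.00477% on Etv6, 0.267% and 0.0429% on Nfxl1, 0.324% and 0.0572% on EGFP, 0.544% and 0.0143% on mock, and 0.262% above it on Hmga2.

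On slide 3 the Crebzf, Pdx1, Sox11 and Zfp451 arrays resembled each other: 0 of the 35 genes were at least 2-fold above or below every other array of the slide on any of them, where 0.424% of all genes were above on Crebzf, 0.334% on Pdx1, 0.277% on Sox11 and 0.248% on Zfp451, and 0.0%, 0.0334%, 0.0% and 0.00477% below. The range over these 4 arrays had a median of 0.18 log2 over the 35 genes and was widest for Lum, at 0.56. This slide held no control, so the 17 to 19 calls on each of its arrays rest on the controls of slide 1. Subtracting each gene's slide mean left 2 calls on each of them, Islr and Postn. That count says nothing of slide 3 itself, because the subtraction removes whatever its 4 arrays share and lowers the controls by the Pax6 level on slide 1.

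**Figure D4:**
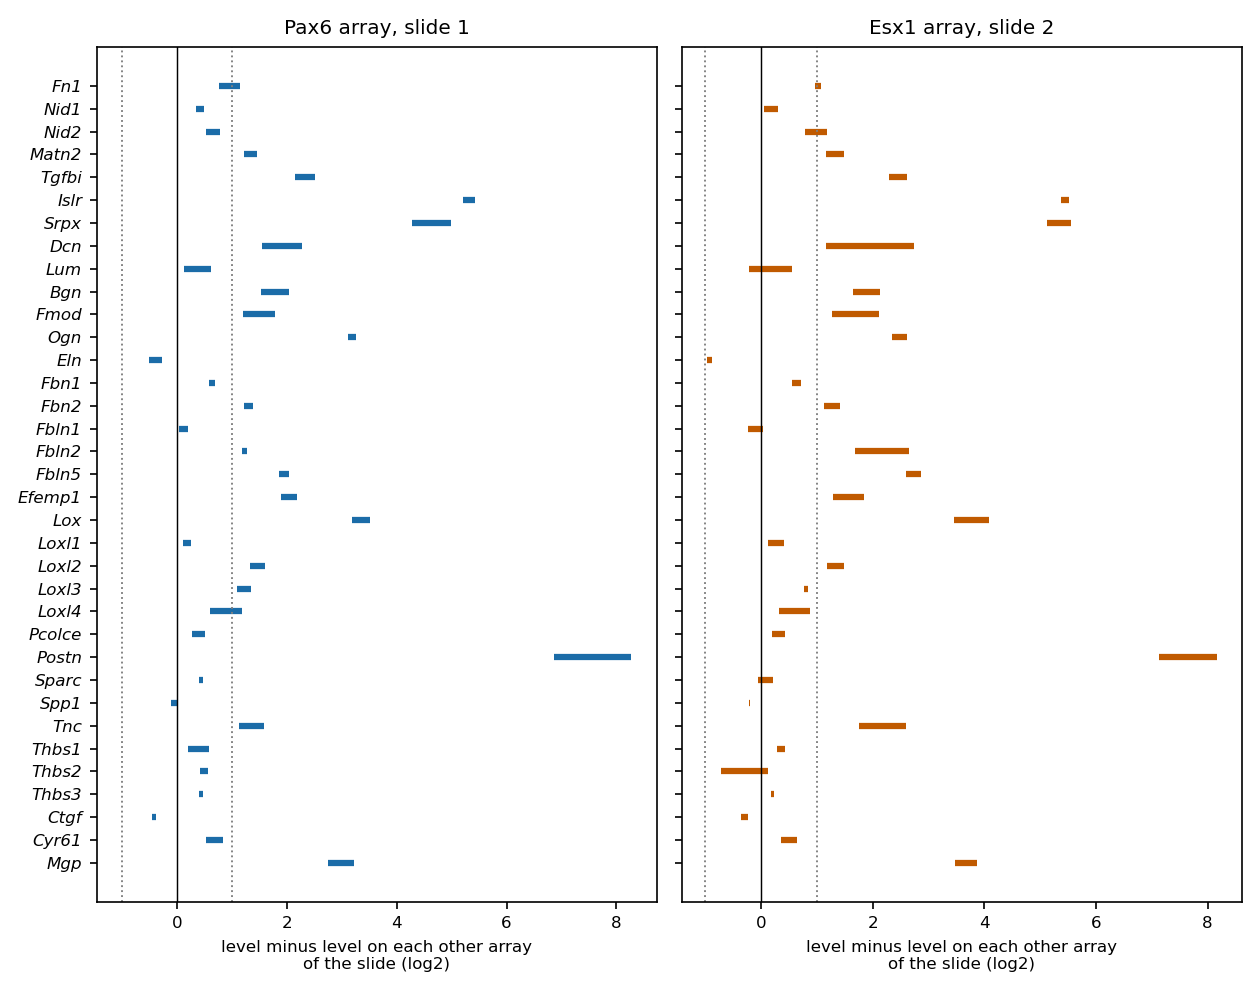
For the Pax6 array (left, slide 1) and the Esx1 array (right, slide 2), the bar of each gene runs from the smallest to the largest difference (log2) from the other 3 arrays of its slide, with dotted lines at 2-fold. Bars lie wholly beyond 2-fold for 18 genes on Pax6 and 17 on Esx1, farthest for Postn at 6.86 to 8.27 and 7.13 to 8.16.

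Other genes of the matrix were followed through fixed lists, by the same rule. On the 6 arrays with many matrix calls, 9.59% to 10.7% of all genes were called higher and 6.28% to 7.42% lower, against which the counts below are to be read. Of 10 further small leucine-rich proteoglycans 9 passed the filter, and 3 of them, Aspn, Prelp and Omd, were called higher on each of Pax6, Esx1, Crebzf, Pdx1, Sox11 and Zfp451. Asporin and prolargin were not well above background on the controls, which gives at least 10.4-fold to 14.0-fold for Aspn and at least 6.26-fold to 9.89-fold for Prelp. Omd, osteomodulin, was 3.22-fold to 5.17-fold higher. Kera, keratocan, was called on Gatad2b alone, at least 5.75-fold. No gene of this list was called lower.

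Of 23 genes for elastic fibre and collagen fibril assembly 22 passed, and 8 or 9 were called higher on each of these 6 arrays. On Hmga2, Gatad2b, Etv6 and Nfxl1 0 were called higher. There 0.3% to 1.04% of all genes were, so a count of 0 is near the background. Ltbp2, a latent TGF-beta binding protein of microfibrils, was 12.4-fold to 16.1-fold higher, and the microfibril-associated Mfap4 was 11.6-fold to 20.8-fold higher. P4ha3, a prolyl hydroxylase subunit for collagen, was 7.41-fold to 9.22-fold higher, and Mfap2 was 7.37-fold to 10-fold higher. Between 0 and 2 genes of this list were called lower on any array. The list's median difference ran from 0.57 to 0.82 log2 on the 6 arrays.

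The TGF-beta and YAP list held calls in both directions. All of its 25 genes passed, and 2 or 3 were called higher and 2 lower on each of the 6 arrays. These shares are near the background in both directions. On the other 4 factor arrays 0 were called either way. With 0.3% to 1.04% of all genes called higher there and 0.572% to 1.17% lower, that is near the background too. The growth factors Tgfb2 and Tgfb3 were 3.49-fold to 6.07-fold and 2.55-fold to 3.35-fold higher. Tead4, a DNA-binding partner of YAP, was 2.69-fold to 3.1-fold lower, and Ankrd1, a target gene of YAP, was 2.24-fold to 3.42-fold lower.

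Of 16 matrix receptors 15 passed, and 2 or 3 were called higher and 0 lower on each of the 6 arrays, beside the same background of 9.59% to 10.7% higher. The integrin subunit Itga8, whose dimer binds fibronectin and tenascin-C, was 4.97-fold to 6.07-fold higher, and Itga9 was 2.87-fold to 5.67-fold higher. Sdc2, a heparan sulphate proteoglycan of the cell surface, was 2.09-fold to 2.18-fold higher on Esx1, Crebzf, Pdx1, Sox11 and Zfp451. Of 16 genes for the brain's own matrix 13 passed and 1 to 3 were called higher on those 6 arrays. The count was 1 on Pax6, 2 on Esx1 and Crebzf, and 3 on Pdx1, Sox11 and Zfp451. Beside these stand 9.59% to 10.7% of all genes, and 1 gene is a large share of 13. Sparcl1, the Sparc relative made by astrocytes, was 8.49-fold to 20-fold higher, and Cspg4, the NG2 proteoglycan, was 2.41-fold to 2.71-fold higher on the same 5 arrays as Sdc2. Hapln1 was called on Pdx1 and Zfp451, and Reln, the layer-forming glycoprotein reelin, on Sox11, each as a bound. Tnr and Hapln2 were well above background on no array, and Hspg2 was not measured, since no probe was matched to it.

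The labelled cell type was checked against markers. Of 13 neural progenitor markers all passed, and 9 were well above background on all 12 arrays, Nes, Sox2 and Vim among them, while Sox1, Fabp7, Olig2 and Hes5 were so on some arrays only. Their summed signal, in units of the array's 75th percentile, was 105.0 on EGFP and 102.0 on mock. It was 85.7 to 100 on the 6 arrays with many matrix calls, below both controls on each, and 104.0 to 129.0 on the other 4. Vim, the brightest probe of the list, makes up most of this sum, which therefore does not describe the 13 markers alike. The list's median difference from the controls was -0.28 to -0.08 log2 on the 6 arrays and -0.11 to 0.09 on the other 4. On the 6 arrays 0 to 3 of the 13 were called higher, beside 9.59% to 10.7% of all genes, and 0 to 2 lower, beside 6.28% to 7.42%. Nes, nestin, was called lower on Pax6, Esx1, Crebzf, Sox11 and Zfp451, 2.14-fold to 2.85-fold. Sox9 was called higher on Esx1, Crebzf, Pdx1, Sox11 and Zfp451, 3.6-fold to 6.47-fold. Olig2 and Fabp7 were called higher on Crebzf alone, at least 2.83-fold and at least 2.67-fold.

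Markers of other cell types differed mostly on the same arrays as the matrix genes. Beside the counts below, 9.59% to 10.7% of all genes were called higher and 6.28% to 7.42% lower on the 6 arrays with many matrix calls. On the other 4 factor arrays 0.3% to 1.04% were called higher, so a count of 0 there is near the background. In lists this short, 1 gene is a large share. Of 14 fibroblast and mesenchymal markers 13 passed and 10 were well above background on all 12 arrays, the controls included. Their summed signal was 466.0 on EGFP and 464.0 on mock and 479.0 to 531.0 on the factor arrays. S100a4, by far the brightest probe of the list, makes up most of this sum. It differed from the controls by -0.55 to -0.28 log2 on the 6 arrays with many matrix calls. The list's median difference was 0.85 to 1.07 log2 on those arrays and -0.11 to 0.13 on the other 4 factor arrays. On arrays of Esx1, Pax6, Pdx1, Crebzf, Sox11 and Zfp451, 3 to 7 fibroblast and mesenchymal markers were called higher and 1 lower, Twist2. That 1 lower call among 13 genes is near the background share. Among those called higher were Thy1 at 12.8-fold to 42.1-fold and Col1a1 at 4.32-fold to 4.9-fold. Pdgfra was called on the most arrays, 7, Etv6 included, at 2.25-fold to 5.13-fold. Astrocyte markers, of which 7 of 8 passed, summed to 12 and 10.9 on the controls, 21.7 to 26.3 on those 6 arrays and 8.95 to 12.1 on the other 4, with Gfap and Aqp4 not well above background on most arrays. Aldoc, the brightest probe, makes up most of this sum. On the 6 arrays 1 to 4 of the list were called higher, S100b on each at 2.4-fold to 3.77-fold. Aqp4 was called on Hmga2 alone, at least 3.05-fold. Neuron markers, 7 of 7, summed to 0.983 and 0.998 on the controls, to 1.7 to 1.94 on the 6 and to 0.923 to 1.06 on the other 4. Map2 and Tubb3 make up most of this sum, and Tubb3 was called on no array. On the 6 arrays 3 or 4 of the list were called higher, Stmn2, Snap25 and Syt1 on each. Dcx was well above background on 1 array and Rbfox3 on 8. Pericyte and smooth muscle markers, 7 of 8, summed to 21.0 and 20.5, to 27.7 to 46.3 and to 24.2 to 26.8 in the same order. Acta2 and Tagln make up most of this sum, and Acta2 was called on no array. Of the list 2 to 4 were called higher on the 6 arrays and 0 on the other 4. Cnn1 was 5.24-fold to 10.9-fold higher on the 6. Endothelial markers stayed between 0.031 and 0.0472, with Pecam1, Cdh5 and Tie1 well above background on no array. Embryonic stem cell markers, 6 of 6, summed to 0.407 and 0.4 on the controls. Their sum was 0.543 to 0.676 on the 6 arrays and 0.401 to 0.456 on the other 4. Dppa5a, the brightest probe, makes up most of it, and 0 of these markers were called higher on any array. Nanog and Dppa5a were well above background on all 12 arrays, Tdgf1 on 11, Esrrb on 6, Pou5f1 on 5 and Zfp42 on 4. Esrrb of that list was called lower on the 6, at least 3.76-fold to 5.19-fold. The part of these markers in the matrix differences was not tested.

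The arrays do not check their own labels. The overexpressed genes had 26 probes, of which 25 were well above background on at least 1 array. The Pdx1 probe was so on no array. On the array of their own factor 3 probes were highest, 0.2 to 0.82 log2 above the control mean, and 0 were 2-fold above every other array. The Pax6 probes well above background on all 12 arrays lay 1.34 and 1.35 log2 above the controls on the Pax6 array, where they ranked 6 and 5. A probe outside the virus's open reading frame would not see the transgene. Whether the probes lie in the open reading frames was not checked.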

How the data were processed

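RNA of 12 cultures was measured on 12 one-colour arrays. The deposited scanner tables hold the processed fluorescence intensity of 43379 spots per array that are not controls, made by the authors with Agilent Feature Extraction 10.7.3.1, per the file headers. It equals the deposited series table on 100.0% of probes. From there, outlier spots (61 to 104 per array) were dropped, repeated spots averaged, values under the lowest signal well above background raised to it, and log2 of the 75th percentile of each array, 823.5 to 1026.0, subtracted. Between 62.5% and 69.1% of probes were well above background and 0 spots were saturated. Of 41174 probes, 22951 were named by accession, 6659 by symbol and 3109 by synonym through RefSeq, and 8455 kept the array's name. A gene's level is that of its probe with the highest mean. A call needs a 2-fold difference from both controls, and a lower call also needs both controls well above background. Where the dimmer side was not well above background the fold is written as at least that much.

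With 1 array a group no test was run, and the number of arrays limits the precision. Levels on all 12 arrays are given for genes called on 4 or more factor arrays. Of each companion list up to 4 genes are named, those called on the most arrays, ties going to the larger smallest difference. Cell type markers named outside this rule were chosen after their values were seen. The members and lists were chosen with earlier results of these data known. Alternatives were quantile normalization, normexp with offset 50 (limma 3.58.1, R 4.3.3), genes well above background on all 12 arrays, slide centring, the mean of a gene's probes, and either control alone. The call rule was run on simulated arrays with noise of a set size. That run checks the code of the rule and says nothing of the spread between cultures. Python 3.11.15 with pandas 2.3.3 and numpy 2.4.6 was used. Promoter sequences are from RefSeq, and probe sequences were not used here.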

Additional observations from a re-analysis of the deposited data

How the results depend on the processing

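No result changed direction under the 7 alternatives. Centring each gene on its slide left 2 genes called higher on Crebzf, 2 on Pdx1, 2 on Sox11 and 2 on Zfp451, where slide 3 holds no control. These counts are no check of slide 3, since centring removes what its arrays share and lowers the controls by the high Pax6 levels on slide 1. It also left 0 higher on Etv6 and 0 lower on Esx1. The mean of all probes left 0 higher on Etv6 and 0 lower on Hmga2, against either the controls or the slide. Normexp background correction left 0 lower on Esx1 against the controls, and 0 lower on Hmga2 against either the controls or the slide. With EGFP alone Nfxl1 had 1 lower call, with mock alone Pdx1 and Zfp451 had 1 each, and quantile normalization gave 1 lower call on Zfp451 and 1 on Esx1 against its slide. The cause was not tested. The other counts stayed within 1.5 times. Of 114 single calls, 70 were lost by centring, 11 by the mean of probes, 10 by normexp and 2 by quantile normalization; the filter on all 12 arrays drops Islr. Dim probes, Fmod and Eln among them, limit precision, and 1 array a group leaves biological spread unmeasured. No paired analysis was possible because each group has 1 array.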
